A study of Mus musculus with 6 samples.

Results

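The genes described here are immediate early genes and Klf genes in mouse embryo RNA-seq. They were chosen by symbol from a deposited table of 7101 genes: the Fos, Jun, Egr, Ier, Dusp, Nr4a, Klf, Zfp36 and Btg families, with Atf3, Myc, Cyr61, Ctgf, Socs3 and Maff, and without Klf1. The symbol rule found 47 members. In GENCODE M21, 78 protein-coding genes have a symbol that matches, and 45 of these were in the table, to which Cyr61 and Ctgf add under their older names. The other 33, among them Myc, Ier2, Jund, Fosl1, Egr3, Nr4a1, Dusp6, Klf3 and Zfp36l1, were not analysed here. The rule also caught genes that share a prefix but not a role: Ier3ip1, which encodes a protein of the early secretory pathway, and the zinc finger genes Zfp362, Zfp365 and Zfp369.

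The samples were 6 libraries labelled as embryo, of strain C57BL/6N at stage E12.5. In 3 the genotype was wild type and in 3 it was lnc956 knockout, lnc956 being a long noncoding RNA, and the 2 groups share the strain and stage. The labels do not say how the knockout allele was made, how many embryos went into a library or whether replicates came from different litters, so p-values reflect the spread among these libraries alone, which may be technical. The values are taken as FPKM, fragment counts corrected for transcript length and for how many fragments a library had mapped, which allows levels of different genes to be set side by side.

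Immediate early genes are transcribed within minutes of a growth factor, cytokine or stress signal without new protein synthesis, mainly through the ERK and p38 kinase cascades acting on SRF with its ternary complex partners and on CREB. Their products include the AP-1 factors (dimers of Fos, Jun and related bZIP proteins), the Egr and Nr4a factors, and proteins that end the response: the dual-specificity phosphatases (Dusp), which remove phosphate from MAP kinases, and the Zfp36 proteins, which speed the decay of AU-rich mRNAs. Klf genes encode zinc finger factors that bind GC-rich and CACCC sequences, and several of them are themselves induced early.

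The knockout libraries differed from wild type in tissue markers as well as in these genes. Of 10 tested genes on a placenta and decidua list of 12, all 10 were higher in knockout, and the list summed to 16.5 to 24.0 FPKM in wild-type and 20563 to 42370 FPKM in knockout libraries. Decidual stroma genes summed to 75.1 to 87.8 against 7962 to 9537 FPKM and white blood cell genes to 46.4 to 70.5 against 5132 to 12065 FPKM. Endothelial genes summed to 56.3 to 69.3 against 446 to 547 FPKM. Prl8a2, on both the placenta and the decidual list, was at 7136, 6609 and 6097 FPKM in knockout replicates 1 to 3. The granzyme genes Gzmd and Gzmg of the white blood cell list were at 1751, 5067 and 3103 and at 2012, 4963 and 3320 FPKM there. The decidual and white blood cell sums in knockout thus rest mostly on these genes. Of the tested genes on these lists, 10 of 11 decidual, 11 of 11 white blood cell and 3 of 4 endothelial genes were higher in knockout. The other 1 decidual and 1 endothelial gene did not pass. Over all genes tested, 47.2% were higher in knockout and 49.2% lower. The embryonic tissue lists went the other way, with neuron genes at 739 to 781 FPKM in wild type and 5.90 to 21.1 in knockout, muscle and heart genes at 460 to 622 against 7.85 to 10.9, and erythroid genes at 27898 to 42455 against 2170 to 4811. Stmn2 stood at 101 ± 4.59 FPKM in wild-type and 0.236 ± 0.178 FPKM in knockout libraries, and Prl3b1 at 0.67 ± 0.621 and 6104 ± 880.0 FPKM (mean ± SD, n = 3 in each group throughout). The neuron markers Elavl3 and Nefl were listed at 0 in at least 1 knockout library, as was Igfbp1 of the decidual list, and Psg17 was listed at 0 in at least 1 wild-type library. Neuron and muscle markers, which an embryo of this stage carries, were thus nearly missing from the libraries labelled as knockout embryo. A knockout genotype and another tissue in the libraries labelled as knockout embryo cannot be told apart here, which holds for every difference between the groups given below, and "knockout" below means the libraries so labelled. The part of these tissue differences in the results below was not tested. In whole-sample RNA, fewer cells of a type and less RNA per cell cannot be told apart.

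Of the 47 members, 38 had a higher mean in knockout and 9 a lower one, against 51.3% higher over the whole table. With limma on log2(FPKM + 1), 44 members had enough signal to be tested (at least 1 FPKM in at least 3 libraries), and all 44 passed a Benjamini-Hochberg adjusted p under 0.05, where 96.4% of all 6487 genes tested did. Since 10 genes of the whole table had a log2 ratio of means under 0.5 in size, the table looks selected for genes that differ, and that share says little about the members. The direction was less even: 37 of the 44 tested members were higher in knockout (84.1%), where 47.2% of all genes tested were, and 7 were lower (15.9%), where 49.2% were. The families were picked with earlier results of these data known, so this contrast is a description. The median log2 change of the tested members was 1.45, beside 0.38 for all genes tested. Knockout and wild-type values did not overlap for any of the 47 members, as for 95.6% of the table. The mean in knockout was at least 10 times that in wild type for 13 members (27.7%) and for 10.8% of the table. Egr2, Klf14 and Zfp365 were too low to be tested. Fos, Fosb, Nr4a3 and Klf9 were under 1 FPKM in every wild-type library, and Klf12, Dusp26 and Dusp27 in every knockout library. These genes could pass the filter only through the other group, which fixed their direction and the lack of overlap in advance. Their p-values and their part in the counts are thus no support for a direction. The same holds for genes of the lists below that were under 1 FPKM in all libraries of 1 group. With 3 libraries against 3, an exact permutation test can reach no p under 0.1, and none was run on single genes.

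**Figure D1:**
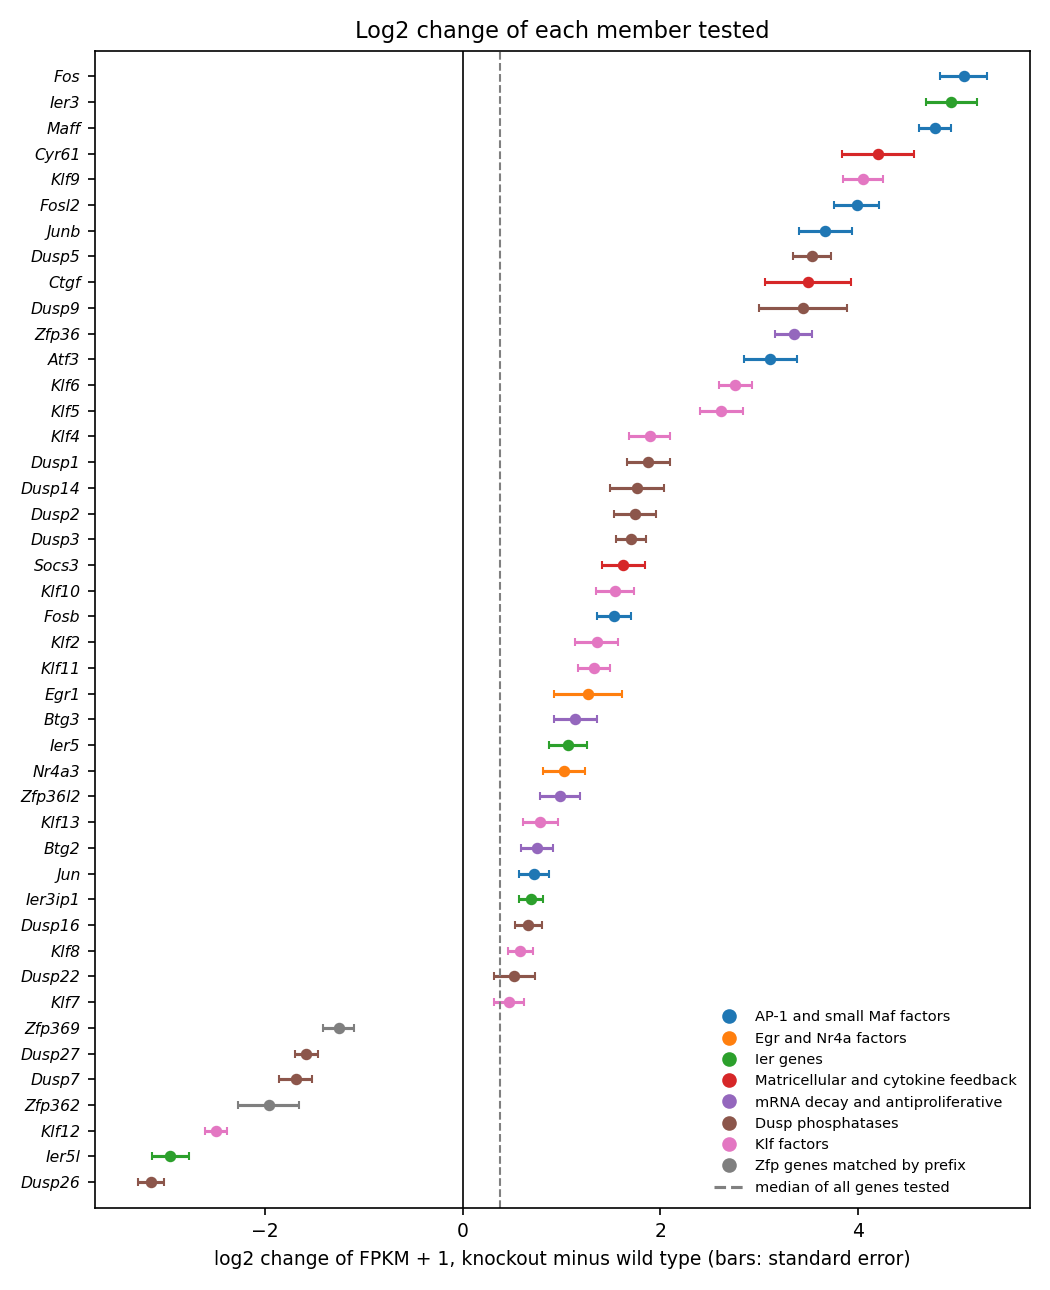
Log2 change of FPKM + 1 (knockout minus wild type, horizontal axis) for the 44 members tested, with bars for the standard error and colours for the family. The dashed line marks the median of all genes tested, 0.38. Fos, at 5.07, lies at the top, Dusp26, at -3.15, at the bottom, and 37 of the 44 points lie to the right of 0.

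All 7 AP-1 and Maf genes were higher in knockout, by very different ratios. Fos, the founding member of the family, was at 0.58, 0.379 and 0.405 FPKM in wild-type replicates 1 to 3 and at 40.2, 69.1 and 39.3 FPKM in knockout replicates 1 to 3. Its knockout mean was 109 times the wild-type mean (log2 change 5.07, SE 0.24, limma adjusted p = 1.39e-06), the largest log2 change of the 44 members tested, and every knockout library exceeded every wild-type library by at least 67.8-fold. Fos passed the filter only through the knockout libraries, so that p-value is no support for the direction. Fosl2, which encodes the Fos-related antigen Fra-2, was at 2.68, 2.17 and 1.84 FPKM in wild type and at 37.7, 66.9 and 49.2 in knockout (log2 change 3.99). Fosb stayed a minor member, at 0.103 ± 0.0862 FPKM in wild type and at 2.25 ± 0.708 in knockout (log2 change 1.53). Junb, a Jun relative that can oppose Jun in growth control, was at 3.86, 3.40 and 2.71 FPKM in wild type and at 51.4, 78.6 and 38.3 in knockout (log2 change 3.67).

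Jun itself was the exception in size. It was already at 35.7, 31.0 and 30.5 FPKM in wild type and at 54.7, 60.9 and 47.4 FPKM in knockout, a ratio of means of 1.68 (log2 change 0.72, limma adjusted p = 0.00209). That call did not hold with quantile normalization (log2 change 0.24, adjusted p = 0.0945). In wild type Jun made up 84.2 ± 1.58% of the summed FPKM of the 5 Fos and Jun genes in the table, and Fos 1.17 ± 0.165%. In knockout the sum was spread over 4 genes at close to equal levels: Jun held 26.1 ± 3.79%, Junb 25.9 ± 3.53%, Fosl2 24.1 ± 3.91% and Fos 22.9 ± 1.70%. The ranges of these shares did not overlap between the genotypes for any of the 4. The total rose from 38.5 ± 3.96 FPKM to 213 ± 56.3 FPKM, and Fos genes alone from 2.79 ± 0.604 to 103 ± 31.2 FPKM. Wild-type libraries thus held 3.44, 2.66 and 2.25 FPKM of Fos-gene RNA beside 39.6, 34.4 and 33.2 FPKM of Jun-gene RNA, while knockout libraries held 80.5, 138.7 and 90.0 FPKM beside 106, 139.5 and 85.6. Jund and Fosl1 are not part of these sums.

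**Figure D2:**
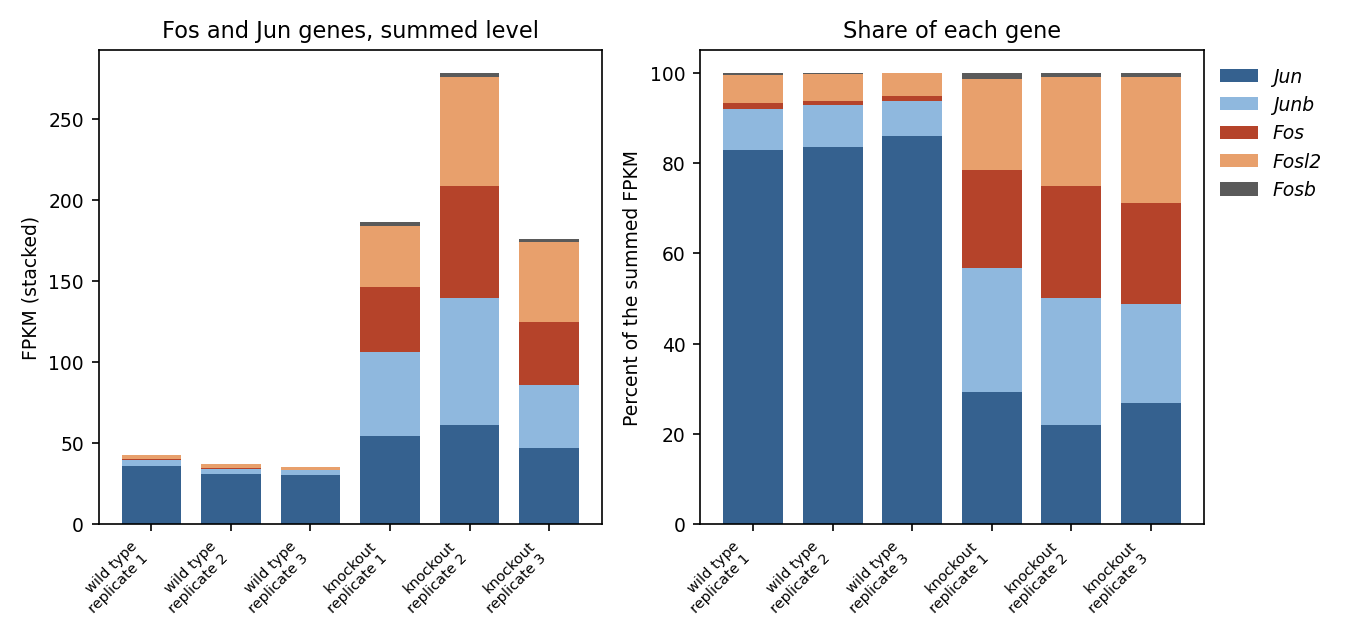
Summed FPKM of the Fos and Jun genes in each library (left) and the percent of that sum held by each gene (right). Jun fills 83.0 to 86.0% of each wild-type bar and 21.9 to 29.3% of each knockout bar, where Junb, Fos and Fosl2 take similar shares.

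Atf3 and Maff, bZIP partners outside the Fos and Jun families, were higher in every knockout library. Atf3, a stress-induced factor, was at 1.59, 1.54 and 1.27 FPKM in wild type and at 13.9, 29.7 and 20.3 in knockout (log2 change 3.12). Maff, a small Maf protein that lacks an activation domain of its own and pairs with Nrf and Bach factors, was at 3.16, 2.14 and 2.70 FPKM in wild type and at 98.0, 110.0 and 89.6 in knockout (log2 change 4.78, SE 0.16, limma adjusted p = 5.77e-07). The 3 knockout libraries were closer together for Maff than for Fos or Junb, and Maff had the smallest adjusted p of the members.

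The Egr and Nr4a genes moved far less than Fos. Egr1, a zinc finger factor that is induced with Fos in most settings, was at 3.06, 2.28 and 1.92 FPKM in wild type and at 4.81, 13.2 and 5.61 in knockout (log2 change 1.27, SE 0.34, limma adjusted p = 0.00844). The knockout value rested on replicate 2 more than on the others, yet all 3 lay above wild type. Egr2 was low throughout, at 0.0551 to 0.205 FPKM in wild type and 0.301 to 0.963 in knockout. Nr4a3, an orphan nuclear receptor, averaged 0.544 ± 0.0644 and 2.24 ± 1.01 FPKM (log2 change 1.03).

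Among the Ier genes, Ier3 and Ier5l went opposite ways. Ier3, which encodes a regulator of ERK signalling and cell survival, was at 3.13, 2.04 and 2.32 FPKM in wild type and at 104.7, 148 and 76.3 in knockout (log2 change 4.95, SE 0.26, limma adjusted p = 2.03e-06). Ier5, which acts with the heat shock factor HSF1, was at 17.4, 16.0 and 16.7 FPKM in wild type and at 28.0, 46.6 and 36.1 in knockout (log2 change 1.07). Ier5l, its paralog, was at 21.3, 15.4 and 17.5 FPKM in wild type and at 1.36, 1.86 and 1.13 in knockout (log2 change -2.96, SE 0.19, limma adjusted p = 4.43e-06). Wild-type libraries thus carried Ier5 and Ier5l at similar levels, and knockout libraries carried Ier5 at 36.9 ± 9.35 and Ier5l at 1.45 ± 0.37 FPKM. Ier3ip1 was at 30.3, 29.7 and 28.4 FPKM in wild type and at 50.3, 45.5 and 48.6 in knockout (log2 change 0.69), a call that did not hold with quantile normalization (log2 change 0.26, adjusted p = 0.0651).

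The stretches before the starts of Fos and Ier3, the members with the largest increases, and of Ier5l, the largest decrease on the log2(FPKM + 1) scale with a sequence at hand, are shown to set the genes side by side. They come from RefSeq on GRCm38.p6, begin 250 bases before the RefSeq start and end at the start or where GENCODE M21 places a first exon. Fos is chr12:85473640-85473889 on the plus strand, Ier3 chr17:35821463-35821683 on the plus strand and Ier5l chr2:30474220-30474449 on the minus strand. Capitals mark the letters TATAAA, which in Fos begin 33 bases before the start, as in a TATA box, and which neither other stretch holds. By ratio of means, Klf12 and Dusp27 fell further than Ier5l. The serum response element for which the Fos gene is known lies farther upstream than this window.
Fos: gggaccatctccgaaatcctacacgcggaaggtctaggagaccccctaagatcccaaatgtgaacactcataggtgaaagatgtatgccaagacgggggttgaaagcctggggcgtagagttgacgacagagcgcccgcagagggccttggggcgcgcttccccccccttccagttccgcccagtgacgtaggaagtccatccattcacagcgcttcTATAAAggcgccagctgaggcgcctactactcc
Ier3: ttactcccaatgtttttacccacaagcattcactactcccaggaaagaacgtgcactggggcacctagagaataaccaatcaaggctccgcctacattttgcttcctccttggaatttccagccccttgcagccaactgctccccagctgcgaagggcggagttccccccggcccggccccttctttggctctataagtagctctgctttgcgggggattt
Ier5l: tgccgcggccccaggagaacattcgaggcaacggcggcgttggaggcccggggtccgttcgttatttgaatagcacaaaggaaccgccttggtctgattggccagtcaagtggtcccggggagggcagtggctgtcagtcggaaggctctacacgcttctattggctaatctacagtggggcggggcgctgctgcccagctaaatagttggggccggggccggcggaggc

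The growth and cytokine genes of the set were higher in knockout, Cyr61 and Ctgf with wide spread. Cyr61 and Ctgf encode secreted matrix-associated proteins of the CCN family and are classic targets of SRF and of YAP with TEAD. Cyr61 was at 14.2, 12.7 and 11.6 FPKM in wild type and at 442, 246 and 149 in knockout (a ratio of means of 21.7, limma adjusted p = 2.03e-05). Ctgf was at 11.3, 9.40 and 6.87 FPKM in wild type and at 71.0, 232 and 86.0 in knockout (log2 change 3.50, SE 0.43). The library with the most Cyr61 was knockout replicate 1, and the one with the most Ctgf was knockout replicate 2. Socs3, the feedback inhibitor of gp130 cytokine receptors, was at 5.40, 4.66 and 4.75 FPKM in wild type and at 22.1, 18.7 and 12.47 in knockout (log2 change 1.63).

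Genes of mRNA decay and growth arrest rose with them. Zfp36 encodes tristetraprolin, which binds AU-rich elements in the mRNAs of cytokines and of Fos, and was at 4.43, 3.34 and 3.40 FPKM in wild type and at 42.8, 58.7 and 41.3 in knockout (log2 change 3.35, SE 0.19, limma adjusted p = 2.66e-06). Its paralog Zfp36l2 started higher and moved less, from 28.0, 23.4 and 24.8 FPKM to 40.8, 67.7 and 48.5 (log2 change 0.99). The antiproliferative genes Btg2 and Btg3, whose products bind the CCR4-NOT deadenylase, were at 19.8, 18.8 and 19.7 FPKM and at 9.56, 9.58 and 5.66 FPKM in wild-type replicates 1 to 3. In knockout replicates 1 to 3 Btg2 was at 31.8, 28.5 and 41.4 FPKM (log2 change 0.75) and Btg3 at 16.9, 21.0 and 19.3 (log2 change 1.14). Of the 3 genes that share a prefix with Zfp36 but not its role, the 2 tested were lower in knockout: Zfp362 fell from 44.3, 41.7 and 42.5 FPKM to 17.9, 7.72 and 7.598 in replicates 1 to 3 (log2 change -1.96) and Zfp369 from 4.56 ± 0.576 to 1.34 ± 0.333 (log2 change -1.25), while Zfp365, which was not tested, was at 0.945 ± 0.081 and 0.154 ± 0.0609 FPKM.

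**Figure D3:**
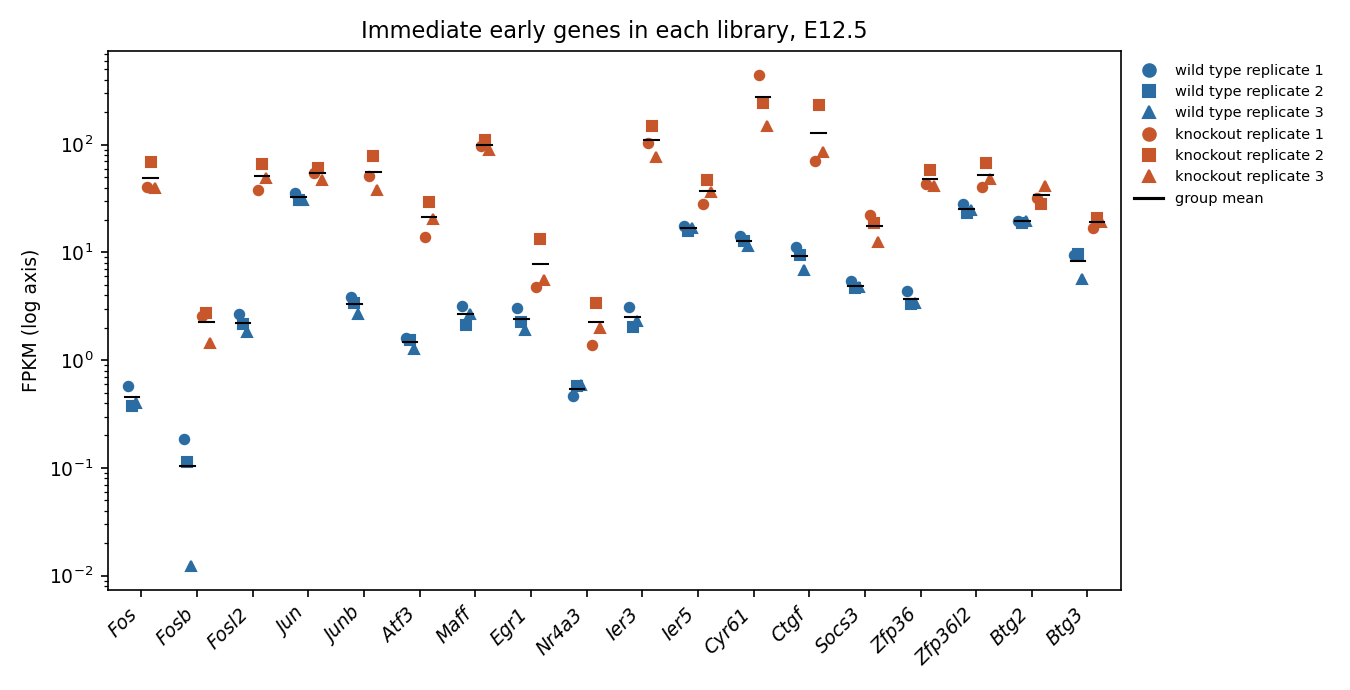
FPKM (log axis) of 18 immediate early genes in each library, with symbols for the replicate, blue for wild type, orange for knockout and a bar for the group mean. The orange points lie above the blue ones for every gene shown, by the widest gap for Fos and by the narrowest for Jun.

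The Dusp genes went both ways. Of the 11 in the table, all tested, 8 were higher and 3 lower in knockout, where 47.2% and 49.2% of all genes tested were. The nuclear, inducible phosphatases in the table, which are themselves immediate early genes, were all higher. Dusp1 was at 12.7, 8.98 and 11.1 FPKM in wild type and at 51.8, 46.9 and 31.6 in knockout (log2 change 1.88). Dusp2 was at 1.26 ± 0.263 and 6.75 ± 2.01 FPKM (log2 change 1.75). Dusp5, which is specific for ERK, was at 1.40, 1.22 and 1.27 against 31.7, 26.8 and 19.8 (log2 change 3.54, SE 0.19, limma adjusted p = 2.51e-06). The 2 cytoplasmic ERK phosphatases in the table went opposite ways. Dusp9, which is required in mouse for the placental labyrinth, was at 10.5, 7.92 and 12.9 FPKM in wild type and at 177, 56.9 and 178 in knockout (log2 change 3.45, SE 0.44). Dusp7 was at 23.4, 19.9 and 19.2 FPKM in wild type and at 7.03, 4.97 and 5.41 in knockout (log2 change -1.69, SE 0.17, limma adjusted p = 4.29e-05). Dusp7 thus went from the most abundant Dusp gene of the table in wild type, with 27.3 ± 1.01% of the summed Dusp FPKM, to 2.17 ± 0.306% in knockout, where Dusp9 held 54.5, 28.4 and 61.4% in replicates 1 to 3. Dusp6, the other cytoplasmic ERK phosphatase of this type, and Dusp4 are among the genes not analysed here.

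Dusp16, which acts on JNK and p38, was at 5.88, 6.29 and 6.12 FPKM in wild type and at 9.38, 10.4 and 11.02 in knockout (log2 change 0.67). Of the small atypical phosphatases, Dusp3 rose from 5.39, 4.55 and 4.11 FPKM to 17.4, 18.7 and 16.3 in knockout (log2 change 1.70) and Dusp14 from 3.95, 3.45 and 2.40 to 14.7, 18.01 and 8.88 (log2 change 1.76). Dusp22 had the weakest call of the 44 members: it was at 7.45, 6.97 and 6.09 FPKM in wild type and at 8.95, 8.69 and 13.8 in knockout (log2 change 0.53, limma adjusted p = 0.0372). That call was lost without wild-type replicate 1, 2 or 3 (adjusted p = 0.0626, 0.0863 and 0.123) and without knockout replicate 3 (log2 change 0.33, adjusted p = 0.0824). The 2 atypical genes that were lower are linked to differentiated tissues. Dusp26, a phosphatase of neural and neuroendocrine tissue, was at 8.55, 9.26 and 7.17 FPKM in wild type and at 0.0993, 0 and 0.032 in knockout (log2 change -3.15, SE 0.13, limma adjusted p = 9.8e-07), the largest decrease of the members tested. Dusp27, a muscle gene whose product lacks phosphatase activity, was at 2.73, 2.005 and 2.02 FPKM in wild type and at 0.0131, 0.134 and 0.102 in knockout (log2 change -1.58). The neuron and the muscle marker lists were low in the same libraries, as given above. Whether that bears on Dusp26 and Dusp27 was not tested.

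Promoter stretches of Dusp5, Dusp1 and Btg2 are shown because they hold the elements through which serum and cyclic AMP are known to act on early genes. They were taken in the same way, and both strands were searched for each motif. Dusp5 (chr19:53528895-53529108, plus strand) holds 2 CArG boxes, the letters that SRF binds, which lie end to end and begin 82 and 72 bases before the start. Dusp1 (chr17:26508520-26508722, minus strand) and Btg2 (chr1:134079156-134079405, minus strand) each hold the full cyclic AMP response element TGACGTCA, which begins 143 and 166 bases before the start. Capitals mark these letters. Only the full TGACGTCA was searched, so shorter forms of it, such as tgacgt in the Fos stretch above, were neither counted nor marked.
Dusp5: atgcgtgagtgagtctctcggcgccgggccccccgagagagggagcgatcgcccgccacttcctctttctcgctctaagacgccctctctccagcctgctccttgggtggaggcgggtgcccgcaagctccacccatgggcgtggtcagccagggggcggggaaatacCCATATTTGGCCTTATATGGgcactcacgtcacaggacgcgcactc
Dusp1: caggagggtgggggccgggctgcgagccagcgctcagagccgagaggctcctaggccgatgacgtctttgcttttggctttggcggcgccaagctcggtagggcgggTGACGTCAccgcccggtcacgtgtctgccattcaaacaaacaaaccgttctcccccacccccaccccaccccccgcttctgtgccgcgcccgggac
Btg2: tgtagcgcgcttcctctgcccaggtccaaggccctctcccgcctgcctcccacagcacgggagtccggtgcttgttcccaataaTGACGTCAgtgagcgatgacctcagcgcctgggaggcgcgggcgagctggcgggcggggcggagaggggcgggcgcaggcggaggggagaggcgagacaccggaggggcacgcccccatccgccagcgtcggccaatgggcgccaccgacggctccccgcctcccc

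Promoters were at hand for 36 members, 31 of them higher and 5 lower in knockout, with 1 window of 250 bases per gene before its most upstream RefSeq start. A CArG box was found in 2 of the 31 higher members, Dusp5 and Zfp36. The Zfp36 window begins within an exon that GENCODE M21 places farther upstream, so its box lies inside the gene as drawn there. A CArG box was in 1.41% of all 27025 promoters and in 1.27% of those of genes in the table. TGACGTCA was found in 2 of the 31, in 1.60% of all promoters and in 2.24% of those of genes in the table. The letters TGANTCA, where N is any base, are looser than the AP-1 site, so a match need not be such a site. They were in 1 of the 31, Klf9, where they read TGAATCA. They were in 6.85% of all promoters and in 5.10% of those in the table. TATAAA was in 2 of the 31, Fos and Cyr61, and in 2 of the 5 lower members, Klf12 and Zfp365. It was in 13.0% of all promoters and in 7.49% of those of genes in the table. The GC box GGGCGG was in 27 of the 31 higher members (87.1%), in 2 of the 5 lower ones, in 33.0% of all promoters and in 57.7% of the 5531 promoters of genes in the table. These are matches of letters and not measured sites.

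Most of the Klf genes rose. The set held 12 of them. Klf1, which the symbol rule leaves out, is not part of the counts, sums, shares and ranks given here. Of the 11 tested, 10 were higher and 1, Klf12, was lower, beside 47.2% and 49.2% of all genes tested. Their summed FPKM was 60.8, 52.9 and 52.0 in wild-type and 232, 225 and 201 in knockout libraries. Klf6 is a factor induced by injury and needed in mouse for yolk sac blood formation. It was the most abundant of the 12 in both genotypes, at 11.4, 9.71 and 9.98 FPKM in wild type and at 93.8, 68.9 and 68.0 in knockout (log2 change 2.76, SE 0.17, limma adjusted p = 3.85e-06). Its share of the Klf sum was 18.8 ± 0.421% in wild type and 35.0 ± 5.01% in knockout. By group mean, Klf9 made the longest climb in rank, from last of the 12 to second, though Klf14 was below it in wild-type replicates 2 and 3. It encodes a partner of the progesterone receptor in mouse uterus and was at 0.646, 0.728 and 0.668 FPKM in wild type and at 21.1, 35.4 and 25.9 in knockout, a ratio of means of 40.4 (log2 change 4.05, SE 0.20, limma adjusted p = 1.81e-06).

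Klf4 and Klf5, both factors of epithelia and of pluripotent cells, rose to similar knockout levels from different starts. Klf4 was at 6.64, 5.64 and 4.36 FPKM in wild type and at 21.3, 29.2 and 19.6 in knockout (log2 change 1.89), and Klf5, also a gene of the trophectoderm lineage in mouse, at 3.03, 2.38 and 1.73 and at 16.4, 24.6 and 18.4 (log2 change 2.62, SE 0.22). Klf2, the flow-responsive factor of endothelium, was at 6.09, 4.73 and 3.87 FPKM in wild type and at 12.2, 17.9 and 12.3 in knockout (log2 change 1.36). In the same libraries 3 of 4 tested endothelial markers were higher and 1 did not pass, beside 47.2% higher over all genes tested. The TGF-beta-inducible repressors Klf10 and Klf11 rose from 6.97, 6.01 and 5.27 FPKM and from 4.89, 4.22 and 4.32 FPKM. In knockout replicates 1 to 3 Klf10 was at 24.9, 17.7 and 16.9 FPKM (log2 change 1.54) and Klf11 at 14.9, 10.7 and 13.0 (log2 change 1.33). Klf13, a paralog of Klf9, was at 8.02, 6.68 and 7.18 FPKM in wild type and at 14.6, 10.6 and 15.1 in knockout (log2 change 0.79).

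Klf7 and Klf8 showed small differences. Klf7, a gene of developing neurons, had means of 6.05 ± 0.566 FPKM in wild-type and 8.80 ± 1.16 FPKM in knockout libraries (log2 change 0.47, limma adjusted p = 0.0204), a call that was lost without wild-type replicate 1 (adjusted p = 0.0672) or wild-type replicate 2 (adjusted p = 0.0828). Klf8 averaged 1.28 ± 0.0395 and 2.42 ± 0.376 FPKM (log2 change 0.58). Klf12 and Klf14 had lower means in knockout, and Klf14 was not tested. Klf12, a repressor first known for acting on the AP-2alpha gene, was at 5.20, 5.14 and 6.04 FPKM in wild type and at 0.181, 0.117 and 0.132 in knockout (log2 change -2.50, SE 0.11, limma adjusted p = 1.19e-06). It fell from 9.96 ± 1.55% of the Klf sum to 0.0652 ± 0.0129%. Klf14, an intronless member expressed at low levels, was at 0.972, 0.623 and 0.515 FPKM in wild type and at 0.0182, 0.0169 and 0.407 in knockout.

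**Figure D4:**
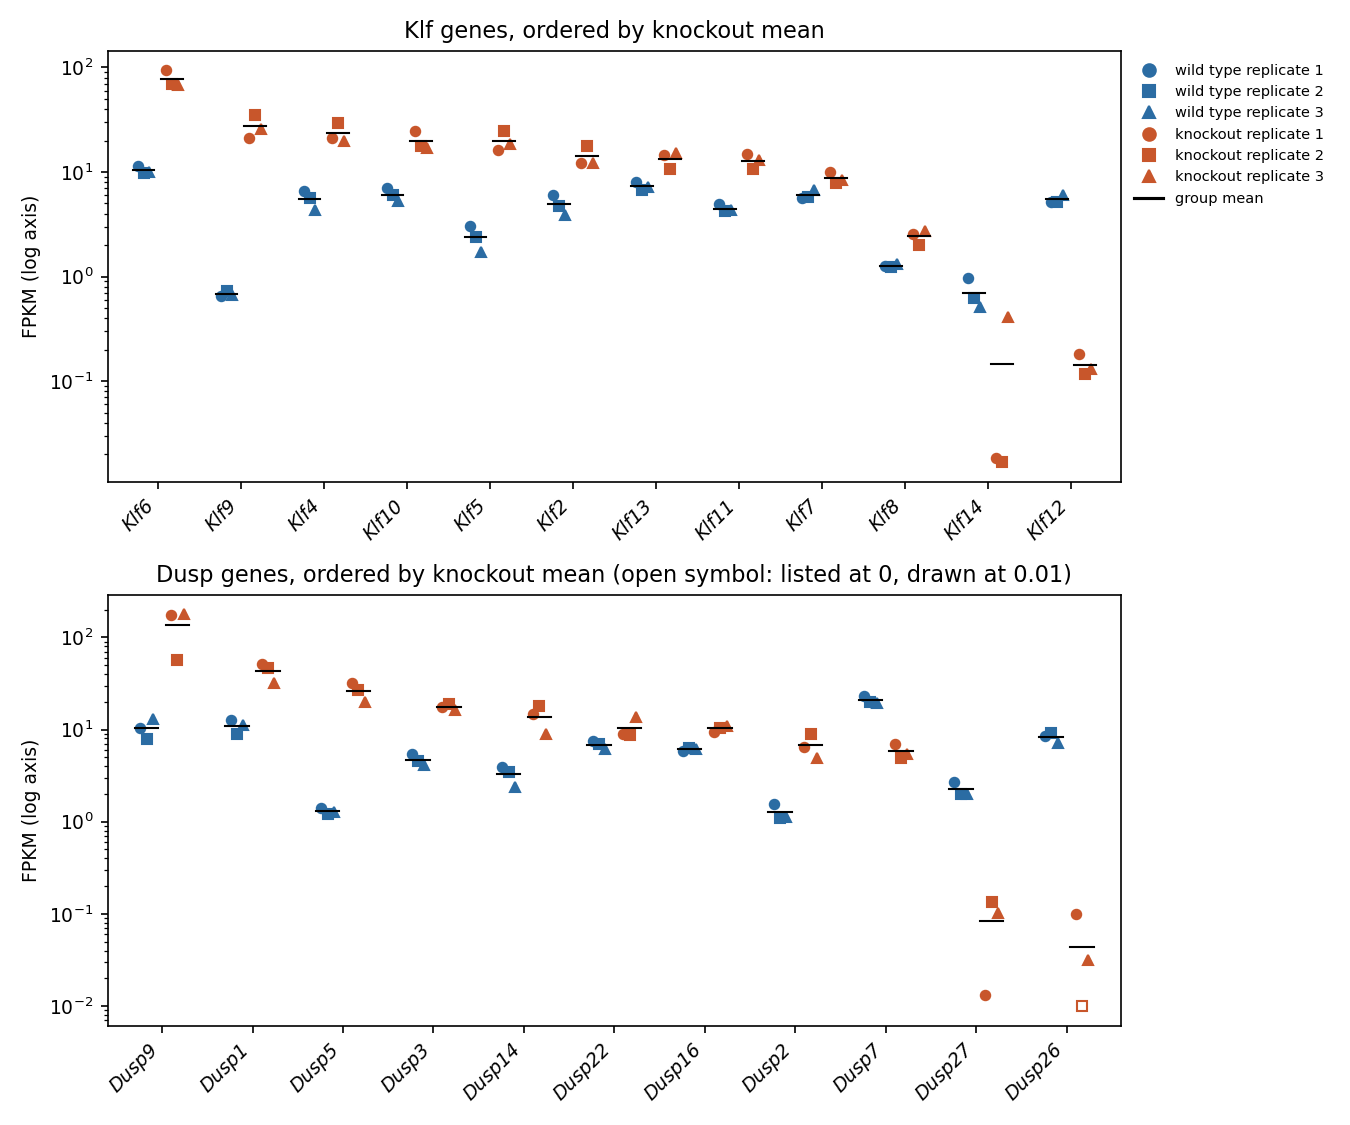
FPKM (log axis) of the 12 Klf genes of the set, without Klf1 (top), and the 11 Dusp genes (bottom) in each library, ordered by the knockout mean, with symbols for the replicate and bars for group means. Klf9 and Dusp5 sit near the bottom of the blue points and among the upper orange ones, while Klf12, Dusp7 and Dusp26 have orange points far below the blue ones, Klf12 at 5.46 ± 0.501 FPKM in wild type and at 0.143 ± 0.0332 in knockout.

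Genes of the pathways around these members were taken from 11 further lists of 213 genes, of which 105 could be tested. Of these, 75 were higher and 28 lower in knockout, with a median log2 change of 1.09, beside 47.2% higher, 49.2% lower and a median of 0.38 for all genes tested. Lists with near-equal counts in both directions below lie close to that background. The list of other early response genes was the most one-sided, with all 25 tested genes of 34 higher (median log2 change 2.31), although Per1 no longer passed without wild-type replicate 2 (adjusted p = 0.0628) or 3 (0.0616) or without knockout replicate 3 (0.0518). The kinase gene Sgk1 stood at 8.82 ± 0.781 FPKM in wild-type and 216 ± 53.3 FPKM in knockout libraries (log2 change 4.44). Of 17 tested bZIP factors outside the rule 14 were higher and 3 lower, and for Atf4, 1 of the 14, the direction turned with quantile normalization (log2 change -0.16). Ddit3, the stress factor CHOP, rose from 12.6 ± 1.07 to 52.8 ± 5.69 FPKM and the small Maf gene Mafk from 7.16 ± 1.19 to 37.9 ± 5.65. Bach2 fell from 5.95 ± 0.259 to 0.712 ± 0.137 FPKM and Nfe2, a factor of red cells and platelets, from 13.7 ± 3.70 to 0.376 ± 0.219.

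The list of SOCS, STAT and gp130 cytokine receptor genes, without Socs3, held mostly genes that were higher. Of its 15 tested genes 12 were higher and 2 lower, beside 47.2% and 49.2% of all genes tested. Stat5a did not pass (log2 change 0.27, limma adjusted p = 0.187). The interleukin 6 receptor gene Il6ra rose from 0.468 ± 0.139 to 33.0 ± 6.29 FPKM, while Socs2 fell from 10.3 ± 0.721 to 3.33 ± 0.847 and Stat5b from 9.07 ± 1.54 to 2.98 ± 0.786. In the Ras, Raf and ERK list 6 of 7 tested genes were higher, led by Rras2 (13.2 ± 0.661 to 69.2 ± 14.0 FPKM) and Rras (14.9 ± 2.14 to 72.4 ± 18.5), and Mapk7, which encodes ERK5, fell from 29.7 ± 3.06 to 6.44 ± 1.34. Most of the ERK and MEK genes of that list were not analysed here.

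Of 8 tested Sprouty and other feedback inhibitors outside the Dusp family 6 were lower, beside 49.2% of all genes tested. Among them were Spry2 (12.4 ± 0.805 to 2.33 ± 0.493 FPKM) and Lrig1 (14.2 ± 0.934 to 1.33 ± 0.636). The 2 that were higher were Errfi1, a feedback inhibitor of the EGF receptor, at 12.1 ± 1.75 and 268 ± 80.9 FPKM, and Rasa2, at 3.81 ± 0.693 and 10.001 ± 0.677. SRF, ternary complex and CREB factors were split, with 4 higher and 4 lower of 8 tested. Mkl2, an SRF coactivator, rose from 6.24 ± 0.602 to 19.0 ± 1.27 FPKM and Crem from 3.80 ± 0.443 to 9.24 ± 1.45. The Ets factors Etv4 and Etv5, known targets of FGF signalling, fell from 5.73 ± 0.391 to 0.523 ± 0.207 and from 11.5 ± 1.93 to 1.21 ± 0.268 FPKM.

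The stress kinase list was split as well, with 5 higher and 4 lower of 10 tested, and Mapkapk3 did not pass (log2 change 0.41, limma adjusted p = 0.104). Map3k6 rose from 0.397 ± 0.131 to 5.69 ± 1.98 FPKM and the p38 delta gene Mapk13 from 3.09 ± 0.347 to 12.45 ± 3.43. The neuronal JNK3 gene Mapk10 fell from 4.91 ± 0.368 to 0.0254 ± 0.00483 FPKM and the p38 beta gene Mapk11 from 12.05 ± 0.921 to 1.38 ± 0.397. Of 7 genes around Cyr61 and Ctgf, 4 were higher and 3 lower. Nov, the third founding CCN gene, was at 22.4, 101 and 24.2 FPKM in knockout replicates 1 to 3 against 1.51 ± 0.369 in wild type, and the TEAD factors changed places, Tead4 rising from 1.88 ± 0.46 to 29.7 ± 1.38 and Tead2 falling from 143 ± 7.02 to 7.76 ± 3.34. Ankrd1, a YAP target like Cyr61 and Ctgf and also a heart muscle gene, fell from 6.32 ± 1.31 to 0.933 ± 0.442 FPKM.

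The smallest lists gave few genes. In the Myc and Max list Mycn fell from 21.7 ± 1.83 to 0.471 ± 0.289 FPKM and Mycl from 24.6 ± 1.28 to 1.01 ± 0.223, while Max (log2 change 0.58) and Mxd1 (log2 change 0.60) were higher. The Max call was lost with quantile normalization (adjusted p = 0.553) and the Mxd1 call without wild-type replicate 2 (adjusted p = 0.0682) or 3 (adjusted p = 0.0706), and Myc itself was not analysed here. Of the Sp factors, relatives of the Klf proteins, Sp4 fell from 2.99 ± 0.661 to 0.648 ± 0.0118 FPKM (log2 change -1.26). Sp5 fell further, from 2.83 ± 0.426 to 0.0687 ± 0.0131 FPKM (log2 change of FPKM + 1 -1.84). Sp3 rose narrowly (log2 change 0.51, limma adjusted p = 0.0411). That call was lost without any 1 of the wild-type replicates (adjusted p = 0.138, 0.0669 and 0.0532 without replicates 1, 2 and 3). It was also lost without knockout replicate 1 (0.11) or 3 (0.0811). Of the deadenylase genes, Tob1 was higher (log2 change 0.67, adjusted p = 0.0527 without wild-type replicate 3) and Cnot10 lower (log2 change -1.60).

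**Figure D5:**
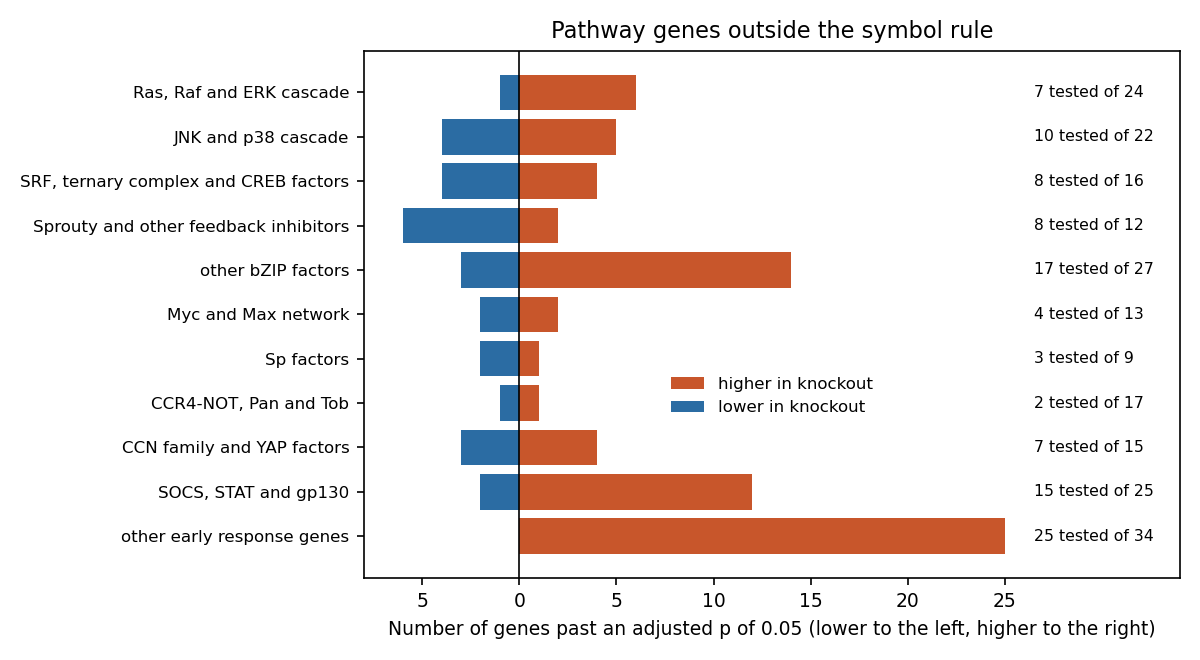
Number of genes of each pathway list past an adjusted p of 0.05, higher in knockout to the right and lower to the left, with the number tested of those listed at the right. The list of other early response genes has 25 higher and 0 lower, and the Sprouty list 2 higher and 6 lower. Over all genes tested, 47.2% were higher and 49.2% lower.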

How the data were processed

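The members and lists were chosen with earlier results of these data known. Values of the deposited table, 1 per gene in each library, are taken as FPKM computed by the authors. The header gives no unit, and FPKM was inferred from values that are not whole and from Cufflinks 2.1.1 being named with TopHat2 2.0.8, per the submitters' processing notes, which list mm9 and mm10 without roles. Numbers of reads were not given in the sources used here. The rule that chose the 7101 genes is not given either, and 3643 were higher and 3458 lower in knockout by mean.

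Log2(FPKM + 1), which understates changes of low genes, was fitted with limma 3.58.1 in R 4.3.3 (trend and robust on) with genotype as the only term, two-sided, for the 6487 genes that reached 1 FPKM in at least 3 libraries. P-values were adjusted by Benjamini-Hochberg over these genes, at a threshold of 0.05. Members with a group mean of 10 FPKM or more, or a log2 change of 2 or more in size, are given per library, and the others by mean or range, with Egr1, Dusp27 and Klf14 per library beyond that rule. From each pathway list the 2 genes of smallest adjusted p per direction are named, with any that did not pass; 2 that the rule took are not reported here. From the marker lists the rule took the 2 largest changes of each, of which Stmn2, Prl3b1, Prl8a2, Gzmd and Gzmg are printed. Replicate numbers were not taken as pairs in this fit. The median log2 change of all genes tested was 0.38 as deposited, 0.67 with trimmed-mean rescaling and 0.01 with quantile normalization. No member changed direction under either. Gene positions follow GENCODE M21 and promoter sequences RefSeq (GRCm38.p6). Figures were drawn with matplotlib 3.10.9.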

Additional observations from a re-analysis of the deposited data

How the results depend on the processing

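Alternatives were pseudocounts of 0.1 and 5, no filter or one of 5 FPKM, trimmed-mean and quantile rescaling, limma without trend and robust, the replicate number as a block, and each library left out in turn. No tested member changed direction under any of them: of 609 refits of single members, 599 stayed past the threshold and 10 did not (Dusp22, Klf7, Jun and Ier3ip1). The count of members higher in knockout was 37, with a range of 35 to 37 when 1 library was left out and 32 to 38 under the other alternatives, and the count lower was 7, with a range of 5 to 9. With the replicate block the counts were 35 and 7, since Dusp22 (adjusted p = 0.0666) and Klf7 (adjusted p = 0.0552) no longer passed. The correlations of same-numbered deviations were -0.06, 0.08 and 0.11, and those of different numbers ran from -0.13 to 0.06. Correlations this small cannot show whether the numbers pair the libraries. The pathway totals of 75 higher and 28 lower stayed within 1.5 times under the alternatives run for them (both rescalings, the block and each library left out). Braf, Il11ra1, Map2k3 and Nfe2l1, counted there as higher, did not pass under at least 1 of them. Sp3 also no longer passed with quantile normalization (adjusted p = 0.363) or the replicate block (adjusted p = 0.071). The number of libraries and read depths that were not given limit what can be said of genes near 0, such as Egr2, Klf14 and Dusp26.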

Other observations

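Among knockout libraries, replicate 2 had the highest value for 22 of the 37 members called higher (59.5%), beside 52.4% of all genes called higher in knockout. Its median ratio to the mean of the other knockout libraries was 1.19 for these members and 1.11 for all such genes. Fos, Junb, Egr1, Ier3, Atf3 and Ctgf were highest there, and Cyr61 and Dusp5 were highest in replicate 1. Dusp9 was lowest in replicate 2. The white blood cell markers, which include granzymes, summed to 5132, 12065 and 7984 FPKM in knockout replicates 1 to 3, and the placenta and decidua markers to 42370, 21478 and 20563 FPKM. Whether either moves with the early genes was not tested. Among wild-type libraries, replicate 1 was highest for 30 of the 37 members (81.1%), beside 57.7% of all genes called higher in knockout, with a median ratio of 1.17 to the others.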
